A study of Mus musculus with 2 samples.

Results

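In mouse sarcoma cells, 9 receptor tyrosine kinase genes, Pdgfra, Pdgfrb, Fgfr1, Fgfr2, Egfr, Met, Axl, Ddr2 and Epha2, were followed between cells in which the circular RNA circCsnk1g3 was targeted and control cells. They were taken by gene symbol, 9 of the 25509 genes in the count table, and all 9 were among the 12941 genes tested, for which 1 or both libraries held 10 counts or more. The comparison asks whether the transcripts of growth factor receptors differ when the circular RNA is targeted. There was 1 shcircCsnk1g3 library and 1 shCTR library, so that no difference has a replicate check and no test between conditions could be made.

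Both libraries came from C57BL/6 sarcoma cells that were p53-/- and carried retroviral Ccne1 (p53-/-Ccne1+). The cells descended from bone mesenchymal cells that had been sorted as CD45-CD31-Ter119-Sca1+PDGFRα+, so the protein of 1 of the 9 receptors, PDGFRα, was itself a sorting marker of the cells of origin. They had formed subcutaneous tumors in a first set of recipient mice, had then been seeded into the lungs of other recipients, and had been taken back from the lung foci. They were transduced with a lentiviral hairpin after that, either shcircCsnk1g3, directed at the backsplice junction of circCsnk1g3, or the control hairpin shCTR. How many foci or animals went into each library is not given in the sources used here. The libraries were made from polyadenylated RNA.

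Receptor tyrosine kinases are single-pass membrane proteins with a ligand-binding outer part and a kinase inside the cell. Binding of a ligand brings receptors together, they phosphorylate each other, and adaptor proteins then carry the signal to the Ras, ERK and PI3 kinase pathways until phosphatases, ubiquitin ligases and inducible inhibitors end it. Mesenchymal cells and sarcomas are known for PDGF and FGF receptors, Axl and the collagen receptor Ddr2, whereas Egfr and Met are best known from epithelial cells.

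The depth was 38792143 counts in shcircCsnk1g3 and 42709996 in shCTR. Csnk1g3, whose linear transcript the hairpin was designed to spare, had 2159 counts under shcircCsnk1g3 and 2411 under shCTR (log2 fold change -0.05, 95% interval -0.14 to 0.03), and the circular form has no poly(A) tail, so the knockdown itself was not measured. Trp53 had 3841 and 4334 counts although both libraries are labelled p53-/-, and counts per gene do not show which exons they came from. Ccne1 had 893 and 963 counts. Of 15 mesenchymal markers 14 were tested, and Vim, the intermediate filament of these cells, stood at 5746 and 6683 CPM, that is, the count scaled to library size by TMM. Of these 14, 4 were higher and 10 lower in shcircCsnk1g3 (median log2 fold change -0.10). The interval lay above 0 for 3 and below 0 for 8, while 26.9% and 28.2% of all genes tested had such intervals. Col1a1, Col1a2 and Col3a1 are in this list and also among the fibrillar collagens given below. The part of these markers in the values of the receptors was not tested. Thy1 had 0 and 1 counts. Of 12 leukocyte markers 9 were at or under 3 counts in both libraries, with 1 and 0 counts of Ptprc, which encodes CD45, and the list summed to 3.37 CPM in shcircCsnk1g3 and 4.71 in shCTR, most of it Cd68. Of 10 lung epithelial markers 7 were at or under 3 counts, Epcam and Sftpc had 0 counts in both libraries, and the list summed to 0.714 and 0.686 CPM. The 8 endothelial markers summed to 6.63 and 5.87 CPM, and the pericyte list to 404 and 313 CPM, nearly all of it Cspg4.

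Axl had the highest level per length of the 9 receptors in both libraries and was lower in the shcircCsnk1g3 library, with Egfr, Pdgfra and Met also lower and Ddr2, Epha2 and Fgfr1 slightly higher. Every change below is a log2 ratio of shcircCsnk1g3 over shCTR in TMM-scaled CPM, and its 95% interval covers counting error only. Of the 9 receptors 3 were higher and 6 lower, with a median log2 fold change of -0.06 beside 0.00 for all genes tested. At least 1.5-fold lower was 1 receptor, Egfr, and 6.31% of all genes tested were that much lower. None of the 9 was at least 1.5-fold higher, against 5.39% of all genes. At a smaller limit of 0.32 on the log2 scale Axl joined Egfr among the lower (13.1% of all genes) and none was among the higher (12.3%), and past 2-fold there was none in either direction (2.55% lower, 2.13% higher). The interval lay below 0 for 4 receptors and above 0 for 3, while 28.2% and 26.9% of all genes had such intervals. All 9 receptors belonged to the 10662 well-covered genes, those with 200 or more counts over both libraries, and of these 3.14% were at least 1.5-fold lower and 1.99% higher, with 31% of intervals below and 29.5% above 0. An interval clear of 0 was therefore common at these depths.

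**Figure D1:**
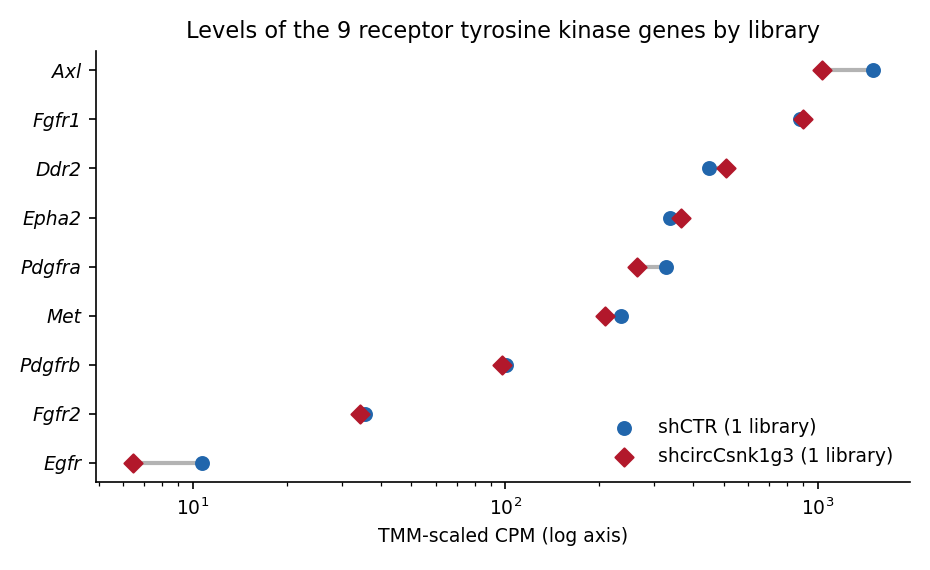
TMM-scaled CPM (log axis) of each of the 9 receptor genes in the shcircCsnk1g3 and the shCTR library, 1 point per library. The shcircCsnk1g3 point lies lower for Axl (1032 against 1500 CPM) and for Egfr (6.43 against 10.7 CPM), and the points of Fgfr1, Pdgfrb and Fgfr2 nearly coincide.

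To set the receptors in order, levels were divided by transcript length and are given as TMM-scaled CPM per kb of the longest coding transcript. On this scale Axl stood at 242 in shcircCsnk1g3 and 352 in shCTR. Fgfr1 followed with 178 and 174, Epha2 with 93.1 and 85.9, and Ddr2 with 59.3 and 52.2. The next members were Pdgfra at 38.6 and 47.9 and Met at 30.6 and 34.4. Pdgfrb stood at 17.98 and 18.52, Fgfr2 at 7.94 and 8.28, and Egfr at 0.630 and 1.05. The span from Axl to Egfr was therefore far wider than any difference between the libraries.

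All 58 receptor tyrosine kinase genes, the 9 and 49 others, were then ranked on the same per-length scale. Of these 37 were above 3 counts in 1 library or both and 21 were not. Axl, Fgfr1, Epha2 and Ddr2 held ranks 1 to 4 in both libraries, and each of the 9 had the same rank in both. Ryk, a Wnt receptor, held rank 5 and stood above Pdgfra and Met. Insr, the insulin receptor, and Ephb4 came next and stood above Pdgfrb. Egfr was at rank 28. The 9 together made up 80.3% of the summed per-length level of all these receptors in shcircCsnk1g3 and 82.0% in shCTR. Axl alone made up 29.1% and 37.3%, and Fgfr1 21.4% and 18.4%.

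**Figure D2:**
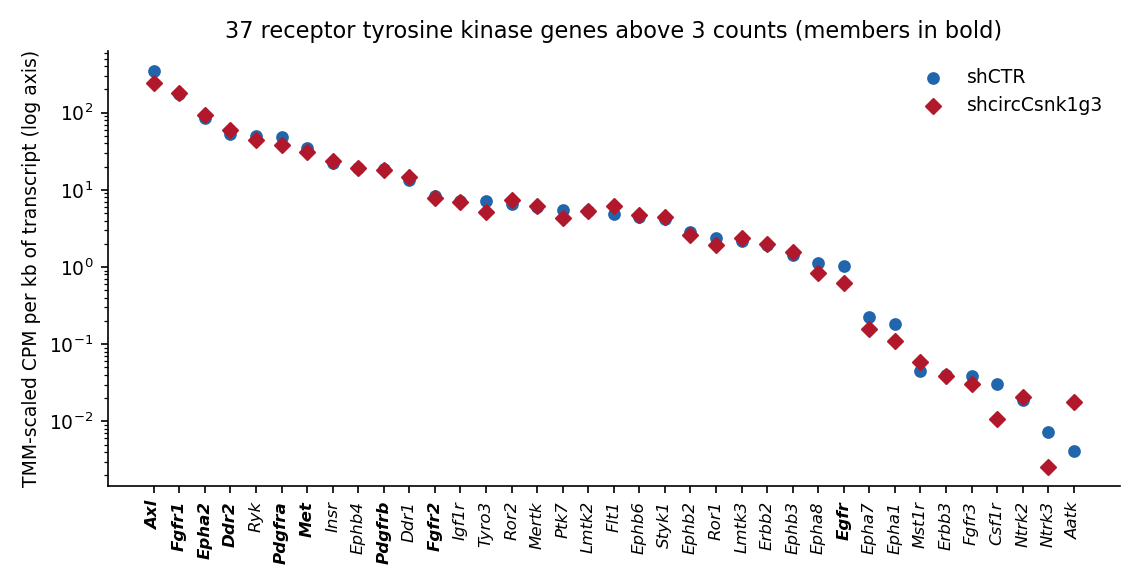
TMM-scaled CPM per kb of the receptor tyrosine kinase genes (log axis) in both libraries, with the names of the 9 receptors in bold. Axl, Fgfr1, Epha2 and Ddr2 hold the first ranks in both libraries, and Egfr lies far down at 0.630 and 1.05.

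Axl is a receptor of the TAM family, whose ligands Gas6 and protein S bind phosphatidylserine on dying cells. The gene (ENSMUSG00000002602.16) lies at chr7:25757273-25788705 on the minus strand of GRCm38. Axl had 40477 counts in shcircCsnk1g3 and 63373 in shCTR, or 1032 and 1500 CPM. The shcircCsnk1g3 library was thus lower by 31.2%, a log2 fold change of -0.54 (95% interval -0.56 to -0.52), just short of the 1.5-fold limit at 0.58. Among the 10662 well-covered genes, 379 (3.55%) had a lower log2 fold change than Axl. Of the 58 genes with a mean CPM (not divided by length) at or above that of Axl, Axl included, 2 had a log2 fold change as low. The other was Thbs1, which encodes the matrix protein thrombospondin-1, with 42428 and 76914 counts and -0.75 (-0.77 to -0.73), and it was picked out after its values were seen.

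Because both genes were read from the same libraries, the ratio of Axl to another receptor does not depend on how the libraries were scaled. Axl stood at 1.36 times Fgfr1 per kb in shcircCsnk1g3 and at 2.02 times in shCTR, and its log2 fold change was 0.58 below that of Fgfr1 (difference -0.58). Of the counts of the 9 receptors, not divided by length, Axl took 30.2% in shcircCsnk1g3 and 38.8% in shCTR. The summed level of the 9 was 3415 CPM in shcircCsnk1g3 and 3869 in shCTR, and Axl was lower by 468 CPM (difference -468).

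The other TAM receptors, Tyro3 and Mertk, were also looked up, a choice made after their values were seen. Tyro3 had 911 counts in shcircCsnk1g3 and 1349 in shCTR, with a log2 fold change of -0.46 (-0.58 to -0.34). Mertk had 1029 and 1095 counts, with 0.02 (-0.11 to 0.14). Axl and Tyro3 were therefore lower with overlapping intervals while the interval of Mertk spanned 0, and the log2 fold change of Axl differed from that of Tyro3 by -0.08 and from that of Mertk by -0.56. Per kb, Axl stood at 46.5 times Tyro3 in shcircCsnk1g3 and 49.1 times in shCTR. Of the ligands, Pros1, which encodes protein S, had 726 counts and 1168 counts and a log2 fold change of -0.58 (-0.71 to -0.44). Gas6, named outside the rule because it is the other ligand of the family, was listed at 0 counts in both libraries. Of the TAM ligands only protein S thus had a measurable transcript, and that transcript was lower in shcircCsnk1g3. Whether protein S acts on Axl in these cells was not tested. Axl is also a gene of macrophages, and of the leukocyte list Cd68 was lower too, with 87 and 155 counts and -0.71 (-1.12 to -0.34). The other tested leukocyte marker, Cd74, had 33 and 37 counts and -0.05 (-0.78 to 0.66), and Cd79a had 9 and 5 counts. At 1.80 and 2.98 CPM per kb, Cd68 was far below Axl, and Ptprc had 1 and 0 counts. Fewer cells of a type and less RNA per cell cannot be told apart in these bulk libraries.

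The promoters of the receptors at either end of the range are shown, Axl and Egfr as the lowest and Ddr2 as the highest, so that the sequence around a RefSeq start of each can be read beside its value, a choice made after the values were seen. Each is 300 bases long, from 250 before to 50 after the RefSeq start (GRCm38.p6), read 5′ to 3′ on the strand of the gene. Capitals mark matches on either strand to 4 motifs. These are the GC box with the letters GGGCGG, the TATA box with the letters TATAAA, the binding site of AP-1 factors with the letters TGANTCA, and that of TEAD factors with the letters GGAATG. The Axl window is chr7:25788684-25788983 on the minus strand, the Egfr window chr11:16751953-16752252 on the plus strand, and the Ddr2 window chr1:170088895-170089194 on the minus strand. The RefSeq start of Ddr2 is also the start of a GENCODE M21 transcript, but it lies inside the gene, 21617 bases from the outermost M21 transcript start, and gene-level counts do not show which start was used.
Axl: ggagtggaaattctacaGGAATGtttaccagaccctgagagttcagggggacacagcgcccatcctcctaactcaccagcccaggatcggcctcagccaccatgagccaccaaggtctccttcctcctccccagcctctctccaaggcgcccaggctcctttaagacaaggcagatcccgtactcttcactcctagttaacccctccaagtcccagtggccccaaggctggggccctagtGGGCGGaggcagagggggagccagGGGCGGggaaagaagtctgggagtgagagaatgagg
Egfr: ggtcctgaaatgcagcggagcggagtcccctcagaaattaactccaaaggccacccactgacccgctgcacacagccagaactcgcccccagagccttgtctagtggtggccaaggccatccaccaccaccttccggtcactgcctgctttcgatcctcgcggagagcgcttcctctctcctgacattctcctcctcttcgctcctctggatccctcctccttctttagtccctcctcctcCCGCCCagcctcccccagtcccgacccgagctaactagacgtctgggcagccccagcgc
Ddr2: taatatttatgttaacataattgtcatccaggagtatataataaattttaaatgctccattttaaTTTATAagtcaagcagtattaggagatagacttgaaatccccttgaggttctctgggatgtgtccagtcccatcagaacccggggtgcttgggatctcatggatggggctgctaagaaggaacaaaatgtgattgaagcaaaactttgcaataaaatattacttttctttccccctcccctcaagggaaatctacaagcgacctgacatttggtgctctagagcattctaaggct

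The Axl window holds GGAATG at position -233 from the start and GGGCGG at -10 and 14. The Egfr window holds the GC box on the other strand at -9, and the Ddr2 window holds the TATA letters on the other strand at -185. GGGCGG is present in 35.7% of the 32851 promoters of this table, TATAAA in 13.6%, GGAATG in 14.7% and TGANTCA in 7.81%. The interferon-stimulated response element, which is present in 3.44%, was found in none of the windows of the 7 receptors that were in the table (Axl, Ddr2, Egfr, Epha2, Fgfr2, Met and Pdgfra). The Axl window had 60.3% G and C and 6 CpG, the Egfr window 62.3% and 15, and the Ddr2 window 39% and 2, while the medians of all promoters were 52.7% and 7. Of the other members, the Met window had 75.7% and 34 CpG and held GGGCGG at -239, -117 and -20 and an AP-1 match at -54. The Epha2 window held TEAD letters at -243 and -56 and a GC box at -96. The Fgfr2 and Pdgfra windows held none of these letters, and the RefSeq start of Fgfr2 lies 545 bases from the nearest M21 transcript start, so that its window holds no M21 start.

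Pdgfra and Pdgfrb are the receptors of platelet-derived growth factors, and Pdgfra, at chr5:75152292-75198215 (plus strand, ENSMUSG00000029231.15), was the next lowest after Egfr and Axl. Pdgfra had 10344 counts in shcircCsnk1g3 and 13824 in shCTR, or 264 and 327 CPM. Its log2 fold change was -0.31 (-0.35 to -0.27), and 9.58% of the 10662 well-covered genes were lower. Pdgfrb, at 61045150 to 61085061 on chromosome 18 (plus strand, ENSMUSG00000024620.11), had 3824 and 4244 counts, or 97.51 and 100.5 CPM. With a log2 fold change of -0.04 (-0.11 to 0.02) Pdgfrb had an interval across 0. Cspg4, an NG2 proteoglycan gene that pericytes share with Pdgfrb, had 15833 and 13207 counts and 0.37 (0.34 to 0.40). The other pericyte markers were at or near 0, with 1 and 4 counts of Rgs5, 0 and 0 of Kcnj8 and of Abcc9, 0 and 1 of Higd1b, 6 and 6 of Notch3, and 14 and 6 of Des. The log2 fold change of Pdgfra was 0.27 below that of Pdgfrb (difference -0.27), and the per-kb ratio of Pdgfra to Pdgfrb was 2.15 in shcircCsnk1g3 and 2.58 in shCTR. The exons of Pdgfra share 456 bases with the antisense gene Gm42802, and the strand setting of the counting is not given in the sources used here.

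Of the 4 PDGF ligand genes 3 were tested, and all 3 had a positive log2 fold change, with a median of 0.37. Pdgfa, whose product binds PDGFRα, had 2368 and 1979 counts and a log2 fold change of 0.37 (0.28 to 0.45). Pdgfb, which binds both receptors, had 132 and 66 counts and 1.08 (0.67 to 1.56). Pdgfc had 437 and 460 counts and 0.03 (-0.16 to 0.23). The PDGF ligands were therefore higher or level where Pdgfra was lower. Sca1, the other positive sorting marker of the cells of origin, is encoded by Ly6a, which had 1854 and 3223 counts and -0.69 (-0.77 to -0.61).

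**Figure D3:**
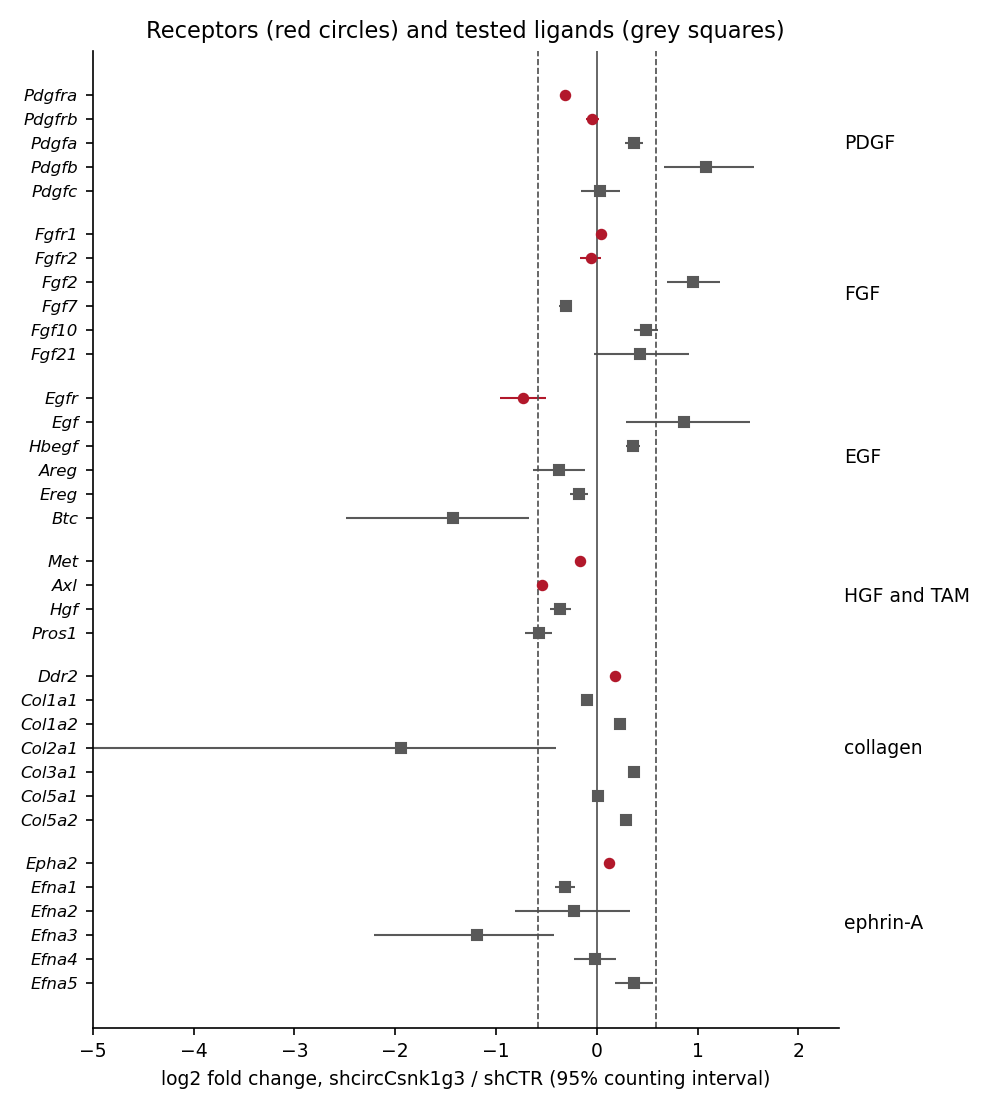
Log2 fold change (shcircCsnk1g3 over shCTR) of each receptor and of the tested genes of its ligand lists, with 95% counting intervals. The PDGF ligands lie at or above 0 while Pdgfra lies at -0.31, Hgf and Pros1 lie below 0, and the interval of Col2a1, with 1 and 10 counts, runs beyond the axis.

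Fgfr1 and Fgfr2 bind fibroblast growth factors together with heparan sulfate proteoglycans. Fgfr1, at chr8:25513654-25575718 (plus strand, ENSMUSG00000031565.17), had 35262 counts in shcircCsnk1g3 and 37023 in shCTR, or 899 and 876 CPM. Its log2 fold change was 0.04 (0.02 to 0.06), an interval just above 0. Fgfr2, at chr7:130162451-133123350 (minus strand, ENSMUSG00000030849.17), had 1342 and 1508 counts, or 34.2 and 35.7 CPM. Its log2 fold change was -0.06 (-0.17 to 0.05), so neither FGF receptor stood apart from 0 by more than a small amount. The per-kb ratio of Fgfr1 to Fgfr2 was 22.47 in shcircCsnk1g3 and 20.996 in shCTR. An annotated Fgfr2 transcript shares 314 exonic bases with Ctbp2 on the same strand, and Fgfr1 exons share 164 bases with antisense Gm16159.

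Of 18 FGF ligand genes 13 were at or under 3 counts in both libraries and 4 were tested, 3 of them higher and 1 lower. Fgf7, a ligand of Fgfr2, had 3443 and 4601 counts and a log2 fold change of -0.31 (-0.37 to -0.25). Fgf10 had 1261 and 970 counts and 0.49 (0.36 to 0.61), and Fgf2 had 341 and 189 counts and 0.95 (0.70 to 1.22). Fgf7 and Fgf10, which are both known to act through Fgfr2, thus lay on opposite sides of 0. Counts per gene do not show which splice form of Fgfr2 was made, and ligand binding was not measured. Of 8 tested co-receptor genes, 6 were lower and 2 higher (median -0.14). Among them, Sdc1 had 3134 and 4869 counts and -0.53 (-0.59 to -0.46), Sdc3 had 175 and 295 counts and -0.64 (-0.92 to -0.37), and Gpc4 had 101 and 186 counts and -0.76 (-1.14 to -0.42). The more abundant Gpc1 had 13655 and 13507 counts and 0.12 (0.09 to 0.16), and Sdc2 had 8865 and 9769 counts and -0.03 (-0.07 to 0.01).

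Egfr, the receptor of epidermal growth factor, had the lowest log2 fold change of the 9 but also the fewest counts. The gene (ENSMUSG00000020122.16) is at chr11:16752203-16918158 on the plus strand. It had 252 counts in shcircCsnk1g3 and 451 in shCTR, or 6.43 and 10.7 CPM, which makes it 1.66-fold lower. Its log2 fold change was -0.73 (-0.96 to -0.51), and 205 of the 10662 well-covered genes (1.92%) were lower. The interval of Egfr overlapped that of Axl, so their order is not set by these counts. It also held the 1.5-fold limit, so whether Egfr lies past that limit is not set either. Of the lung epithelial list, Epcam and Sftpc had 0 counts in both libraries. Ager had 15 counts in shcircCsnk1g3 and 16 in shCTR, Foxj1 had 12 and 7, and Cdh1 had 1 and 6.

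Of the 7 EGF ligand genes 5 were tested, 2 higher and 3 lower. Hbegf had 3827 and 3215 counts and a log2 fold change of 0.36 (0.29 to 0.43), whereas Ereg had 1924 and 2346 counts and -0.18 (-0.27 to -0.09). Areg had 215 and 300 counts and -0.37 (-0.63 to -0.12). Btc had 15 and 47 counts and -1.43 (-2.49 to -0.68), and Egf had 64 and 37 counts and 0.86 (0.29 to 1.52). The ligands of Egfr had no common direction, with a median of -0.18.

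Met, the receptor of hepatocyte growth factor, had 8173 counts in shcircCsnk1g3 and 9887 in shCTR, or 208 and 234 CPM. It lies at chr6:17463800-17573980 on the plus strand (ENSMUSG00000009376.15), and its log2 fold change was -0.17 (-0.21 to -0.12). Hgf, its ligand, had 1292 and 1792 counts and -0.36 (-0.47 to -0.26). Receptor and ligand were thus both lower, with log2 fold changes that differed by 0.20. The other 5 listed genes of Hgf activation, which encode proteases and their inhibitors, were at or under 3 counts in both libraries.

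Ddr2, a receptor that binds fibrillar collagen, had the highest log2 fold change of the 9. It lies at chr1:169972307-170110762 on the minus strand (ENSMUSG00000026674.9), and its exons share 90 bases with the antisense gene 3110045C21Rik. Ddr2 had 19964 counts in shcircCsnk1g3 and 18962 in shCTR, or 509 and 449 CPM. Its log2 fold change was 0.18 (0.15 to 0.21), and 18.7% of the 10662 well-covered genes were higher, so it stood well inside the range of all genes. Of 6 tested fibrillar collagen genes 4 were higher and 2 lower. Col1a2 had 78250 and 71642 counts and 0.23 (0.22 to 0.25), and Col3a1 had 59725 and 49831 counts and 0.37 (0.35 to 0.39). Col1a1, whose chain joins that of Col1a2 in type I collagen, had 13678 and 15747 counts and -0.10 (-0.13 to -0.06).

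Epha2, a receptor of membrane-bound ephrin-A ligands and also a gene of the ERK target list, had 14289 counts in shcircCsnk1g3 and 14193 in shCTR, or 364 and 336 CPM. It lies at chr4:141301240-141329384 on the plus strand (ENSMUSG00000006445.3), and its log2 fold change was 0.12 (0.08 to 0.15). Of its 5 ligand genes 1 lay above and 4 below 0 (median -0.23). This median is the value of Efna2, with 48 and 61 counts and an interval from -0.81 to 0.33, and it was -0.02 over the ligands with at least 200 summed counts. Efna1 had 1371 and 1838 counts and -0.31 (-0.42 to -0.21), whereas Efna5 had 513 and 429 counts and 0.36 (0.18 to 0.55). Efna4 had 360 and 392 counts and -0.02 (-0.23 to 0.19), and Efna3 had 16 and 42 counts and -1.19 (-2.21 to -0.42). The most abundant ephrin-A ligand was lower where the receptor was slightly higher.

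Placed in order, the 9 ran from Egfr and Axl through Pdgfra and Met to Fgfr2, Pdgfrb, Fgfr1, Epha2 and Ddr2, over a span of 0.91 on the log2 scale. The intervals of Egfr and Axl overlapped, as did those of Met and Fgfr2, of Fgfr2 and Pdgfrb, and of Pdgfrb and Fgfr1. The intervals of Axl and Pdgfra, of Pdgfra and Met, of Fgfr1 and Epha2, and of Epha2 and Ddr2 did not overlap, but they cover counting error only. The middle 95% of the well-covered genes ran from -0.65 to 0.53, and the middle 50% of all genes tested from -0.16 to 0.16. Beside these, Axl lay inside the wider range and Egfr outside it. The interval of Egfr (-0.96 to -0.51) held the lower limit of the wider range, so its place is not set by these counts.

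**Figure D4:**
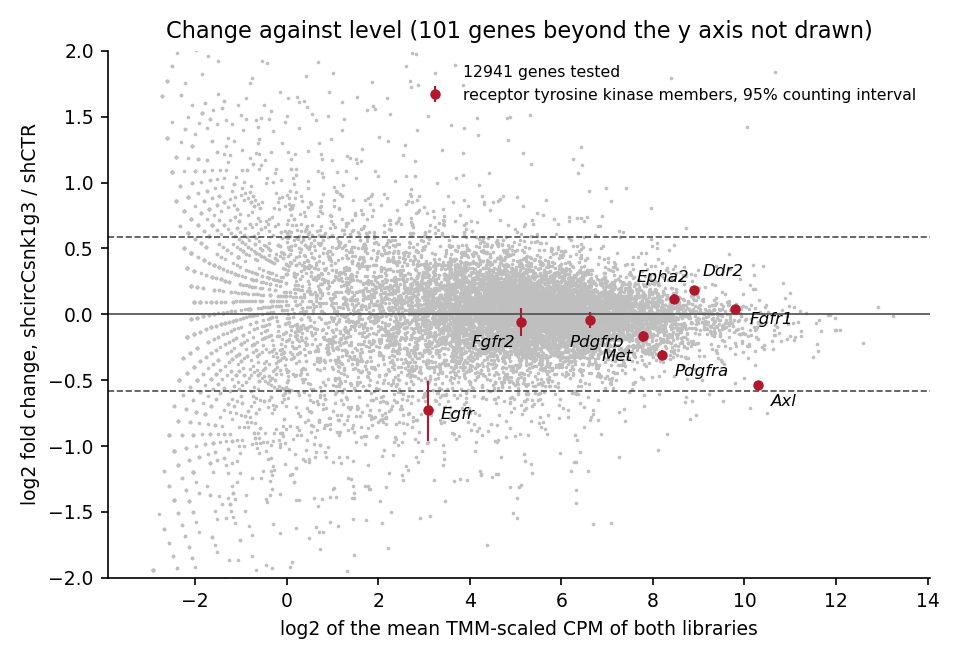
Log2 fold change (shcircCsnk1g3 over shCTR) against the log2 of the mean TMM-scaled CPM for all genes tested (grey) and the 9 receptors with 95% counting intervals; 101 genes beyond ±2 are not drawn. Axl lies at -0.54 among the most abundant genes and Egfr at -0.73 among genes of low level.

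Of the 49 other receptor tyrosine kinase genes, 23 were tested, 12 above and 11 below 0 (median 0.00). None was at least 1.5-fold higher and 1 was at least that much lower, Epha1, with 14 and 25 counts and an interval across 0 (-1.79 to 0.27). Insr had 8675 and 8869 counts and 0.08 (0.03 to 0.12), Ryk had 4998 and 6089 and -0.18 (-0.23 to -0.12), and Ephb4 had 3246 and 3507 and 0.00 (-0.07 to 0.07). The receptors as a class were thus centred on 0. Axl and Egfr stood at the lower end, together with Epha1 (-0.66), Epha7 (-0.51), Tyro3 (-0.46) and Epha8 (-0.41). The intervals of Epha1 and Epha7 spanned 0. Epha7, Tyro3 and Epha8 were named after their values were seen.

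The genes through which these receptors signal went both ways by small amounts. All 30 adaptors and effectors were tested, 15 higher and 15 lower, with a median of 0.00, values from -0.20 to 0.36 and no gene past 1.5-fold. The interval lay above 0 for 10 of them and below 0 for 9, shares near the 29.5% and 31% of the well-covered genes. The ends of that range, named after their values were seen, were Pik3r1 with 2291 and 1923 counts and 0.36 (0.27 to 0.45), and Grb2, the adaptor that links receptors to Ras, with 2551 and 3157 counts and -0.20 (-0.28 to -0.12). Src had 9387 counts in shcircCsnk1g3 and 8604 in shCTR and 0.23 (0.19 to 0.28), and Pik3r2 had 8524 and 10202 and -0.15 (-0.19 to -0.11). Among 21 receptor inhibitors 14 lay above and 7 below 0 (median 0.16). The interval of 12 inhibitors lay above 0 and that of 4 below 0, beside 29.5% and 31% of the well-covered genes. Spry2 and Spry4 are in both this list and that of the ERK target genes. Errfi1, an inhibitor of Egfr, had 19815 and 17877 counts and 0.26 (0.23 to 0.29). Lrig1, which promotes the loss of Egfr and Met, had 6770 and 8721 counts and -0.26 (-0.30 to -0.21). Spred1 had 6719 and 7526 counts and -0.06 (-0.10 to -0.01). Of 18 tested ERK target genes, Epha2 among them, 14 lay above and 4 below 0 (median 0.13), while 6521 of all genes tested lay above and 6420 below. The interval was above 0 for 10 ERK targets, below 0 for 4 and across 0 for 4, beside 29.5% above and 31% below among the well-covered genes. Ccnd1 had 51473 and 45163 counts and 0.30 (0.28 to 0.31), Myc had 10466 and 10149 and 0.15 (0.11 to 0.19), and Egr2 had 209 and 126 and 0.83 (0.51 to 1.17). Dusp5, a nuclear ERK phosphatase, had 1329 and 2461 counts and -0.78 (-0.88 to -0.68).

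**Figure D5:**
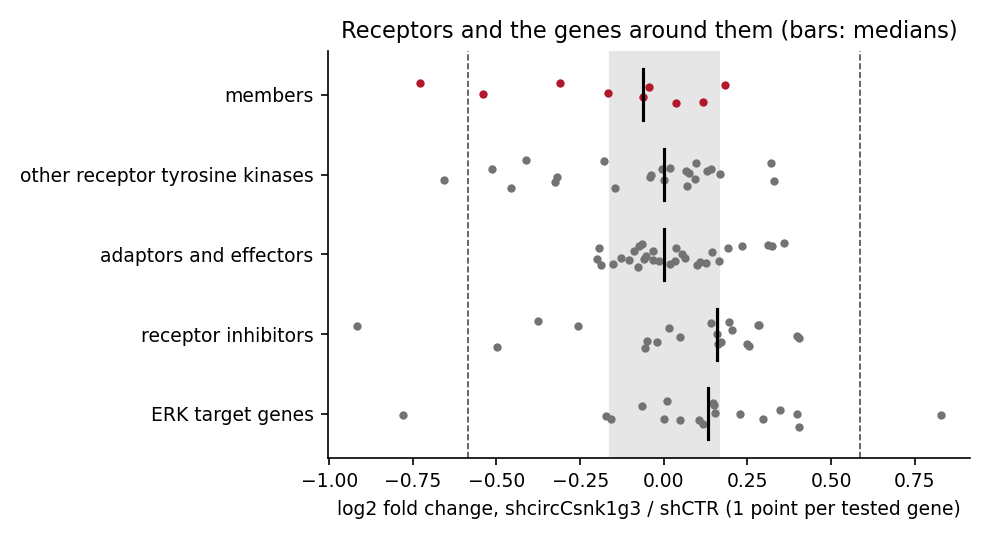
Log2 fold change (shcircCsnk1g3 over shCTR) of every tested gene of each gene list, 1 point per gene, with the list median marked. The 9 receptors have a median of -0.06, the adaptors and effectors 0.00, the receptor inhibitors 0.16 and the ERK targets 0.13.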

How the data were processed

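Per the labels, poly(A) RNA of both cell cultures was made into stranded libraries. The authors converted reads with bcl2fastq 2.20, aligned them with STAR 2.6.1 to GRCm38 and estimated counts per gene with RSEM 1.2.28, and the GENCODE release is not given in the sources used here. The first deposited table holds estimated counts as whole numbers for 25509 genes and 92 spike-in rows at 0 in both libraries, which were left out. The other deposited table holds TMM-scaled CPM for 11624 genes. RSEM divides reads shared by similar genes, so close paralogs depend on that step.

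The receptors and gene lists were chosen with earlier results of these data known. The 12941 genes tested, which had 10 counts or more in either library, were scaled by TMM (edgeR 4.0.16, R 4.3.3). Log2 fold changes used a prior count of 2. With 1 library per condition, the ratio of counts has a 95% Clopper-Pearson interval, computed with scipy 1.17.1 in python 3.11.15, which covers counting error only. Counts of 3 or fewer were taken as the floor (0.0765 and 0.0710 CPM).

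Lengths and coordinates came from GENCODE M21, which held 25251 of the 25509 identifiers, and promoters from RefSeq (7 of the 9 receptors matched). Duplicated symbols (37) took the identifier with most counts. Besides the 9, the text names from each list the 3 genes of highest mean CPM and those at least 1.5-fold changed with at least 50 summed counts, at most 4 by size of change. Exceptions are named as such, and a result for 1 gene under this rule is not reported here. Of the 22 listed receptor inhibitors 21 were in the table. Alternatives were DESeq2 1.42.0 size factors, total counts, prior counts of 0.5 and 10, no filter, at least 200 summed counts, the deposited CPM, log2 limits of 0.32 and of 1 (2-fold), and a 99% interval. Steps were tested on simulated counts.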

Additional observations from a re-analysis of the deposited data

How the results depend on the processing

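No paired analysis was possible because each group held only 1 library, and no replicate could be left out. Of 63 log2 fold changes of the 9 receptors recomputed under the alternatives, 60 stayed inside the main 95% counting interval and 0 changed sign. With total counts in place of TMM, which moved the median of all genes by 0.03, the log2 fold change was 0.0685 for Fgfr1, -0.51 for Axl and 0.21 for Ddr2, and the median of the 9 moved from -0.06 to -0.03. With limits of 0.32 on the log2 scale and of 2-fold, the receptors at least that much lower were 2 and 0, in place of 1 at 1.5-fold. Of 88 list medians, 82 stayed inside the counting interval of the gene or genes at the median, which is wide for lists of few counts. Among these the ephrin-A median, -0.23, became -0.02 with at least 200 summed counts. The median of the fibrillar collagens, 0.12, became 0.15 with total counts and 0.23 with no filter or at least 200 summed counts and 0.24 in the deposited CPM, that of the PDGF ligands 0.20 with no filter, and that of the endothelial markers, 0.18, became -0.20 with no filter. The genes at least 1.5-fold higher (698) and lower (817) became 1765 and 1468 with no filter, 212 and 335 with at least 200 summed counts, and 352 and 528 in the deposited CPM. At those 2 other limits they were 1598 and 275 higher and 1692 and 330 lower. With the length of all exons, an alternative added after seeing the data, Pdgfra in shCTR stood at 37.3 CPM per kb, Fgfr1 at 168 and Fgfr2 at 6.98, and Fgfr2 moved from rank 12 to 13. Depth limits Egfr most, with 252 and 451 counts.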

Other observations

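Among the other receptor tyrosine kinases, those known as Wnt co-receptors or pseudokinases of that pathway were looked up after their values were seen. Ror1 had 433 counts in shcircCsnk1g3 and 583 in shCTR, or -0.32 on the log2 scale (-0.50 to -0.14), and Ptk7 had 724 and 977 counts and -0.32 (-0.47 to -0.18). Ror2 had 1153 and 1105 counts and 0.17 (0.05 to 0.29). Ror1 and Ror2, which both bind Wnt5a, thus lay on opposite sides of 0. Flt1 and Kdr, VEGF receptors of endothelial cells, were chosen in the same way. Flt1 had 1646 and 1421 counts and 0.32 (0.22 to 0.42), while of the endothelial markers Ramp2 had 154 and 146 counts and 0.18 (-0.15 to 0.52), Egfl7 had 85 and 68 counts and 0.42 (-0.05 to 0.91), Cdh5 had 10 and 16 counts and -0.49 (-1.87 to 0.66), and Pecam1 had 7 and 7 counts. Vwf had 2 and 5 counts, Esam had 2 and 6, and Emcn and Cldn5 had 0 in both libraries. Kdr was listed at 0 counts in both libraries.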
